A study of Mus musculus with 6 samples.

Results

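The immediate early and stress-induced genes examined here were 35 genes, chosen by name as members of the classes that cells transcribe within minutes to hours of a stimulus or an injury. Each had to be measured on the array by a probe set annotated to 1 gene symbol, with the brightest probe set used where there were several. All 35 were found, each with 1 such probe set, among 19938 genes with a probe set of that kind. They were compared between hepatic tissue of ARSB-null mice and hepatic tissue of control mice.

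Arylsulfatase B, or ARSB, takes the 4-sulfate group off the end of chondroitin 4-sulfate and dermatan sulfate chains. It is known as a lysosomal enzyme, and reports that the study cites place it on the cell membrane as well. The 3 ARSB-null mice were homozygous for the defect, and the 3 controls were C57BL/6J. All 6 were males of 12 weeks on the C57BL/6J background, none was treated, and each liver was hybridized to 1 array. The labels give the mice of each group the numbers 4, 5 and 6 without saying what a number shares, describe the groups as housed under similar conditions, and do not call the controls littermates. The null colony was bred from heterozygous animals, every cell of these mice carries the defect, and the absence of the enzyme is lifelong. The labels name ketamine and xylazine with cervical dislocation as the way the animals were killed, whereas the study's methods name carbon dioxide in place of the drugs. No source used here gives the order or the hour of collection.

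Immediate early genes need no new protein synthesis for their transcription. Growth factors, cytokines, mechanical stress and anoxia activate the ERK, p38 and JNK kinases, which phosphorylate factors already bound at the promoters, such as SRF with its ternary complex partners, CREB and ATF proteins. Many of the transcripts are short-lived, several of the products (dual specificity phosphatases, Zfp36, Btg2) shut the response off again, and in liver the class is known for its induction by partial hepatectomy, feeding and the handling of tissue.

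The values are log2 signals that the authors normalized by quantiles and summarized to 1 value per probe set, with array medians between 6.50 and 6.60. They compare livers for 1 gene, and levels of different genes on this scale were not compared. Arsb itself, the targeted gene, gave 7.63, 7.46 and 7.64 in ARSB-null livers, against 10.21, 10.23 and 10.21 in control livers, a log2 difference of -2.64 (SE 0.10, limma adjusted p = 0.000639). Limma was fitted to all 35556 probe sets, of which 7 passed an adjusted p of 0.05, 2 of them higher and 5 lower in the ARSB-null livers. Hepatocyte markers were bright, with Alb, the serum albumin gene, between 14.1 and 14.3. The tissue was bulk liver, so that fewer cells of a type and less RNA per cell cannot be told apart.

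None of the 35 genes passed the adjusted threshold, where 0.0197% of all probe sets did, and the smallest adjusted p among them was 0.448. The differences were small. They ranged from -0.32 (Egr1) to 0.57 (Jun) on the log2 scale, with standard errors between 0.09 and 0.46. The mean was higher in the ARSB-null livers for 26 genes and lower for 9, with a median difference of 0.14, whereas 45.9% of all probe sets with 1 symbol had a higher mean and their median difference was -0.01. At an unadjusted limma p of 0.05 or less, 6 genes were higher and 0 lower, against 2.75% and 3.19% of all probe sets in these directions. The 6 were Klf4, Dusp6, Nr4a1, Jun, Gadd45b and Klf6. The per-gene analysis of variance left 3 of them, Klf4, Dusp6 and Nr4a1, and called 2.65% of all probe sets higher at that level.

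The groups did not overlap for 7 genes, which were higher in every ARSB-null liver than in any control. These were Atf3, Nr4a1, Klf2, Klf4, Klf6, Dusp6 and Gadd45b. No gene was lower without overlap, and among all probe sets 5.14% were higher and 6.78% lower without overlap. The smallest two-sided p that an exact permutation test of 3 livers against 3 can give is 0.1, so separation of the groups cannot pass a threshold of 0.05. When each array was centred on its median, 4 genes did not overlap (Atf3, Nr4a1, Klf4 and Dusp6), against 3.54% of all probe sets. Without the control numbered 4 there were 13 and without the ARSB-null liver numbered 5 there were 11, beside 14.3% and 9.51% of all probe sets in the same comparisons. The median difference of the 35 genes was 0.07 without the ARSB-null liver numbered 4 and 0.08 without the control numbered 6.

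**Figure D1:**
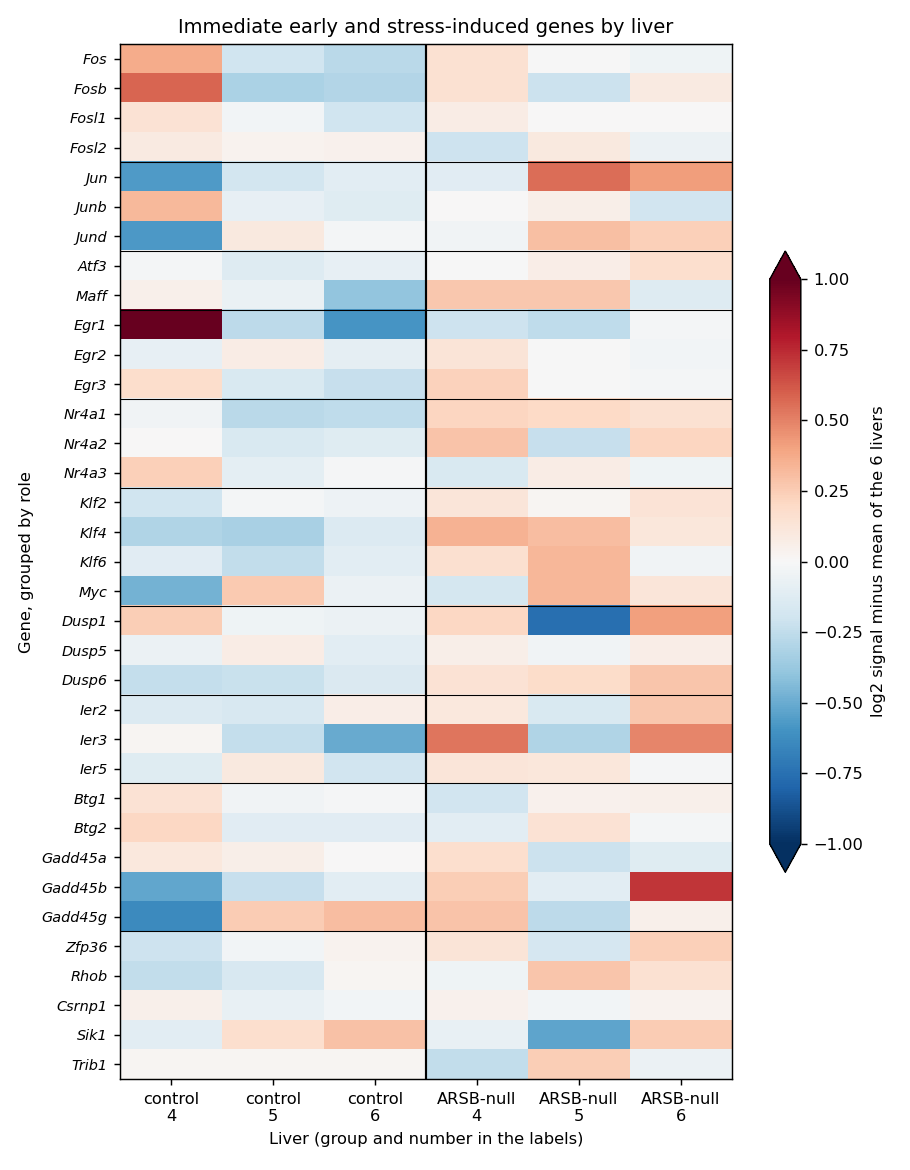
Log2 signal of each of the 35 genes in each liver minus that gene's mean over the 6 livers, with genes in rows grouped by role, the 3 control livers at left and the 3 ARSB-null livers at right (colour scale from -1 to 1, values beyond it drawn in the end colours). Klf4, Dusp6 and Nr4a1 are above their mean in all 3 ARSB-null livers, and Egr1, Fos and Fosb are highest in the control numbered 4.

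**Figure D2:**
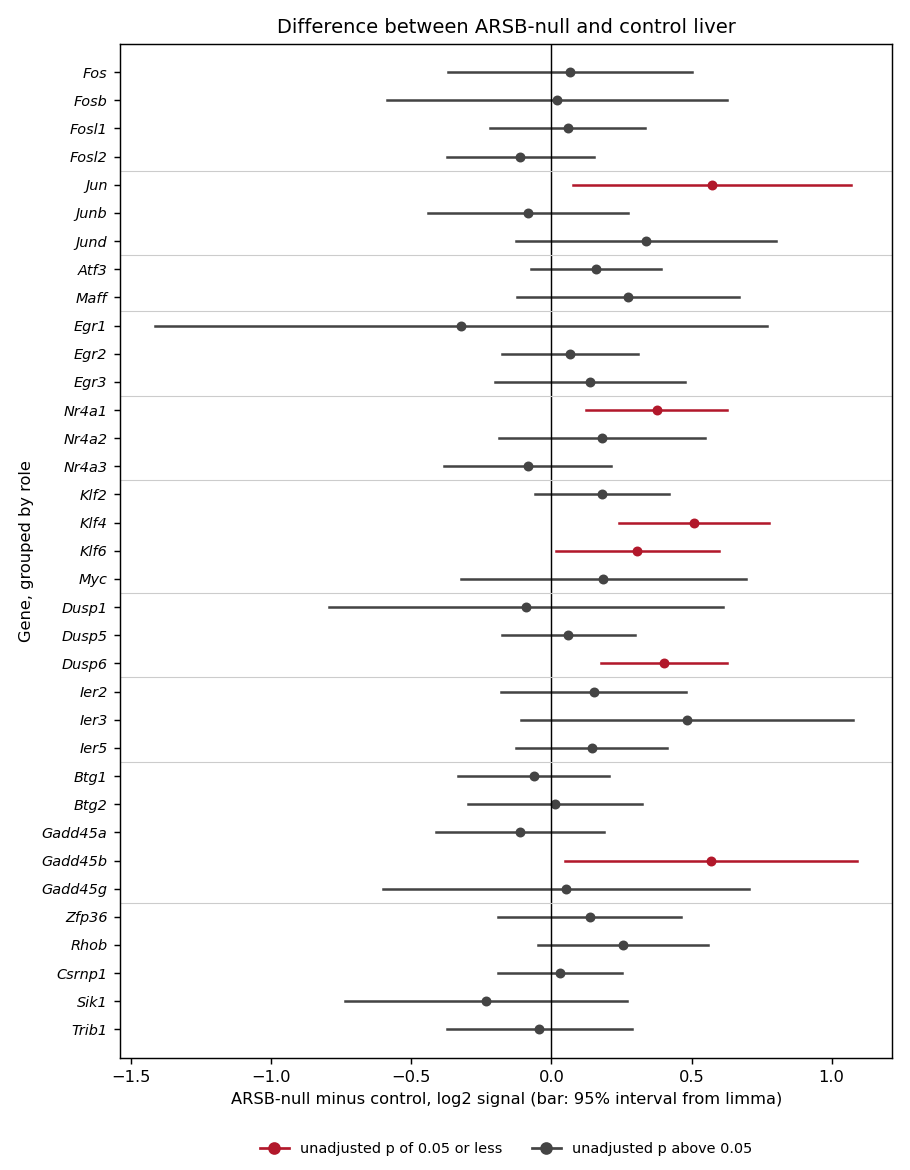
Difference of mean log2 signal, ARSB-null minus control, for the 35 genes in the order of their roles, with points for the difference, bars for the 95% interval from limma (3 livers per group) and red for an unadjusted p of 0.05 or less. The 6 red intervals lie above 0, no interval lies below 0, and the interval of Egr1 is the widest, from -1.41 to 0.77.

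The stretch just before the transcription start is shown for the 6 genes with an unadjusted p of 0.05 or less and for Fos, the gene after which the AP-1 factors are partly named and one that did not separate. Each run is 250 bases long and ends 1 base before the start, reads 5′ to 3′ on the gene's own strand, and comes from RefSeq on build GRCm38.p6. Capitals mark matches, on either strand, to letters that factors of the early response are known to bind.
Klf4 (chr4:55532476-55532725, minus strand): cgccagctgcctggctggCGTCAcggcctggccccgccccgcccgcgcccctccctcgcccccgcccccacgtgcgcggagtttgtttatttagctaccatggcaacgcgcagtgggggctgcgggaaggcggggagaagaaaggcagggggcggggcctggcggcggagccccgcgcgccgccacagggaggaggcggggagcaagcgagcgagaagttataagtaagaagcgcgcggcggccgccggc
Dusp6 (chr10:99262981-99263230, plus strand): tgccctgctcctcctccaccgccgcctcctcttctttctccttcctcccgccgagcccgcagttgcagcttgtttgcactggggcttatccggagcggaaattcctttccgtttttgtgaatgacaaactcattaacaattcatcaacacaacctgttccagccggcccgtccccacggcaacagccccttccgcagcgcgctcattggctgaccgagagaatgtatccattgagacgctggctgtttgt
Nr4a1 (chr15:101266596-101266845, plus strand): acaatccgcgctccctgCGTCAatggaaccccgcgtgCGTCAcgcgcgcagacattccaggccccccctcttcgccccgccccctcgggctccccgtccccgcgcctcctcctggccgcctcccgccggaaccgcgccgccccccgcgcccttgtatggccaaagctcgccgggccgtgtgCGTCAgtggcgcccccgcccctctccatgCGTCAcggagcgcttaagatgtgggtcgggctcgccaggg
Jun (chr4:95052223-95052472, minus strand): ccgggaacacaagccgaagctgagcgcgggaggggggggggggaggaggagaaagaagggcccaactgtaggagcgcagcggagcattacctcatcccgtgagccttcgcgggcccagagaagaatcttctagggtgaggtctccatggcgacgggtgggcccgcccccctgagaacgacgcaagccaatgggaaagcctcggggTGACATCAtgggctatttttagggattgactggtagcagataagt
Gadd45b (chr10:80929841-80930090, plus strand): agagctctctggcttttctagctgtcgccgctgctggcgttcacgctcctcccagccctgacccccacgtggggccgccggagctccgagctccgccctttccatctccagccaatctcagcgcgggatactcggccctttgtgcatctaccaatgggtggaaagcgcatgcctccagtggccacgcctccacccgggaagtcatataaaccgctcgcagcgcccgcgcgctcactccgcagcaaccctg
Klf6 (chr13:5861239-5861488, plus strand): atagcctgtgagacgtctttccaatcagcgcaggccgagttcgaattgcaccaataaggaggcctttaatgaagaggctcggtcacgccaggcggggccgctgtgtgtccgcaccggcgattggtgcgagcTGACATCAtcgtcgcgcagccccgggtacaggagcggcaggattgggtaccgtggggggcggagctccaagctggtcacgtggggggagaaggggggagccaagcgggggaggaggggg
Fos (chr12:85473640-85473889, plus strand): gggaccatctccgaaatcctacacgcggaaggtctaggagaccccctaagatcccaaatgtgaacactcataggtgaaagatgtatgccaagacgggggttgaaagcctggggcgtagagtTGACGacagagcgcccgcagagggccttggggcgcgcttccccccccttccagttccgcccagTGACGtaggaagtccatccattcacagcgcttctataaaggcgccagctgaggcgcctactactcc
The letters searched were TGACG, the core of the cAMP response element that CREB and ATF proteins bind; TGACGTCA, the full element, which contains that core; TGANTCA, the AP-1 site; TGACATCA, a variant bound by Jun with ATF proteins; and the CArG box, to which SRF binds. The Klf4 window held 1 TGACG core, 232 to 228 bases upstream of the start. Nr4a1 held 4 cores, at 233 to 229, 213 to 209, 69 to 65 and 40 to 36 bases upstream, and Fos held 2, at 129 to 125 and 66 to 62. Jun and Klf6 each held 1 TGACATCA, at 45 to 38 and at 119 to 112 bases upstream. Dusp6 and Gadd45b held none of these letters in this window.

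The same search was run over all 32851 promoter windows of that length in the table, which held 37 windows of 28 of the 35 genes (no window of Fosl1, Egr1, Egr3, Myc, Ier2, Sik1 or Trib1 was used). A TGACG core lay in 22 of the 37 windows (59.5%) and in 17.8% of all windows, and the genes that had it numbered 16. The full TGACGTCA was found for Btg2, Dusp1 and Maff, and the CArG box for Dusp5, Egr2 and Zfp36, where 1.55% and 1.47% of all windows held them. TGACATCA was found for Jun, Klf6 and Maff, with 2.93% of all windows, and TGANTCA for Csrnp1 alone, with 6.75%. Of the 6 genes with an unadjusted p of 0.05 or less, Klf4 and Nr4a1 had the core, Jun and Klf6 the variant, and Dusp6 and Gadd45b no match. These are matches of letters within a short window and no measurement of binding.

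Fos, Fosb, Fosl1 and Fosl2 encode the Fos subunits of AP-1, which bind DNA as dimers with Jun proteins. Fos is the textbook immediate early gene, its transcript appearing and decaying within the hour. It gave log2 signals of 6.30, 6.15 and 6.10 in the ARSB-null livers numbered 4, 5 and 6 and of 6.52, 5.95 and 5.88 in the controls of the same numbers. The control numbered 4 was the highest of the 6 livers and the other controls the lowest, so that the ARSB-null livers lay within the range of the controls. The difference was 0.07 (SE 0.18, limma adjusted p = 0.994). Fosb, which also gives rise to a long-lived truncated form in nervous tissue, was 6.31, 5.94 and 6.24 in ARSB-null livers, against 6.73, 5.83 and 5.86 in control livers, again with the control numbered 4 as the highest liver. Its difference was 0.02 (SE 0.26). Fosl1, the gene of Fra-1, ranged over 0.34 across the 6 livers and differed by 0.06, and Fosl2, the gene of Fra-2, differed by -0.11, with adjusted p-values of 0.986 or more for all 4 genes. The signals of Fos, Fosb and Fosl1 were below the median of the arrays, where a probe set may report mostly background, and detection calls were not used here.

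Jun, Junb and Jund encode the Jun subunits, which also form homodimers. Jun is a target of JNK and drives its own promoter, Jund is expressed at rest in most cells, and Junb often opposes Jun. The signal of Jun was 8.37, 9.04 and 8.90 in ARSB-null livers, against 7.92, 8.30 and 8.38 in control livers. The ARSB-null livers numbered 5 and 6 were above every control, whereas number 4 lay just below the highest control, and the 4 was the lowest liver in each group. The difference of 0.57 (SE 0.21, 95% interval 0.08 to 1.07, 1.49-fold) had an unadjusted limma p of 0.0293 and an adjusted p of 0.787. With the mouse number as a block the unadjusted p was 0.00267 (adjusted p = 0.349), and when only probe sets with 1 symbol were tested with that block the adjusted p was 0.0601, the smallest for any of the 35 genes under the settings tried. Leaving out the ARSB-null liver numbered 5 or 6 or the control numbered 4 took the unadjusted p of Jun above 0.05, up to 0.0991.

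Jund was 8.70, 9.02 and 8.97 in ARSB-null livers, against 8.15, 8.82 and 8.71 in control livers. The control numbered 4 stood lowest, and the ARSB-null value numbered 4 was just below the other controls. The difference was 0.34 (SE 0.20, 95% interval -0.13 to 0.80, adjusted p = 0.939), with an unadjusted limma p of 0.130, or 0.0280 when the mouse number was a block (adjusted p = 0.534). Junb was 6.91, 6.96 and 6.72 against 7.23, 6.83 and 6.78, a difference of -0.08 (SE 0.15, adjusted p = 0.993). Here the control numbered 4 was the highest liver, as it was for Fos and Fosb and unlike Jun and Jund, for which it was the lowest. Without that control the difference of Junb was 0.06.

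Atf3 and Maff encode partners of AP-1. ATF3 is a repressor induced by many stresses, and MAFF is a small Maf protein without a transactivation domain of its own. Atf3 was 7.10, 7.17 and 7.28 in ARSB-null livers, against 7.08, 6.97 and 7.02 in control livers, which did not overlap but lay 0.02 apart for the pair numbered 4. The difference was 0.16 (SE 0.10, adjusted p = 0.953). Maff was 7.09, 7.09 and 6.69 against 6.87, 6.75 and 6.43. The groups overlapped, and within each group the liver numbered 6 was the lowest. The difference of Maff was 0.27 (SE 0.17, adjusted p = 0.952), with an unadjusted p of 0.0271 when the mouse number was a block.

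Egr1, Egr2 and Egr3 encode zinc finger factors that SRF and its partners induce through ERK. Egr1 showed the widest range of the 35 genes. It was 7.49, 7.44 and 7.68 in ARSB-null livers, against 9.03, 7.44 and 7.11 in control livers. A single liver, the control numbered 4, stood 1.34 above the next, and the remaining controls were at or below the ARSB-null livers. The difference was -0.32 (SE 0.46, 95% interval -1.41 to 0.77, adjusted p = 0.993), and it was 0.26 without the control numbered 4 (adjusted p = 0.676). The standard deviation was 0.13 in the ARSB-null livers and 1.02 in the controls. Egr2 and Egr3 spanned 0.21 and 0.46 over the 6 livers and differed by 0.07 and 0.14, with overlap and adjusted p-values of 0.988 or more.

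Nr4a1, Nr4a2 and Nr4a3 encode orphan nuclear receptors (Nur77, Nurr1 and NOR-1) whose activity is set mainly by how much is made, and which cAMP induces in liver. Nr4a1 was 6.89, 6.88 and 6.83 in ARSB-null livers, against 6.64, 6.41 and 6.42 in control livers. The ARSB-null livers lay within 0.06 of each other and all of them above the highest control. The controls numbered 5 and 6 were below the medians of their own arrays (6.50 and 6.51). The difference of 0.38 (SE 0.11, 95% interval 0.13 to 0.63, 1.30-fold) had an unadjusted limma p of 0.00946 and an adjusted p of 0.621, and the unadjusted p stayed at or below 0.0409 when any 1 liver was left out. Nr4a2 was 6.88, 6.36 and 6.81 against 6.60, 6.45 and 6.48. Its ARSB-null liver numbered 5 was the lowest of all and the other ARSB-null livers the highest, and the difference was 0.18 (SE 0.16, adjusted p = 0.979). Nr4a3 was below the array median, and differed by -0.08 (SE 0.13), with the control numbered 4 as the highest liver.

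Klf2, Klf4 and Klf6 encode Krüppel-like zinc finger factors. Klf2 and Klf4 are induced by shear stress in endothelium through the ERK5 kinase, and Klf6 is induced by injury in several liver cell types. Klf4 was 7.37, 7.33 and 7.13 in ARSB-null livers, against 6.72, 6.70 and 6.89 in control livers. The lowest ARSB-null liver and the highest control both carried the number 6, with 0.25 between them. The difference of 0.51 (SE 0.11, 95% interval 0.24 to 0.77, 1.42-fold) gave the smallest unadjusted limma p of the 35 genes, 0.00286, and an adjusted p of 0.448. Leaving out 1 liver at a time moved it between 0.46 and 0.58, with an unadjusted p of 0.0132 or less.

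Klf2 was 8.38, 8.28 and 8.40 against 8.06, 8.24 and 8.21, without overlap but 0.04 apart for the pair numbered 5. Its difference was 0.18 (SE 0.10, adjusted p = 0.923). Klf6 was 7.98, 8.14 and 7.78 against 7.70, 7.57 and 7.71, also without overlap, with 0.07 between the livers numbered 6. The difference of 0.31 (SE 0.12, 1.24-fold) had an unadjusted limma p of 0.0411 and an adjusted p of 0.821. With the mouse number as a block its unadjusted p was 0.0605, and 5 of the 6 fits that left out 1 liver gave an unadjusted p above 0.05. Myc, the growth factor induced regulator of ribosome and nucleotide synthesis, was 7.64, 8.14 and 7.93 against 7.34, 8.07 and 7.75. The number 4 was the lowest and the number 5 the highest in both groups, and the difference was 0.19 (SE 0.21, adjusted p = 0.989).

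**Figure D3:**
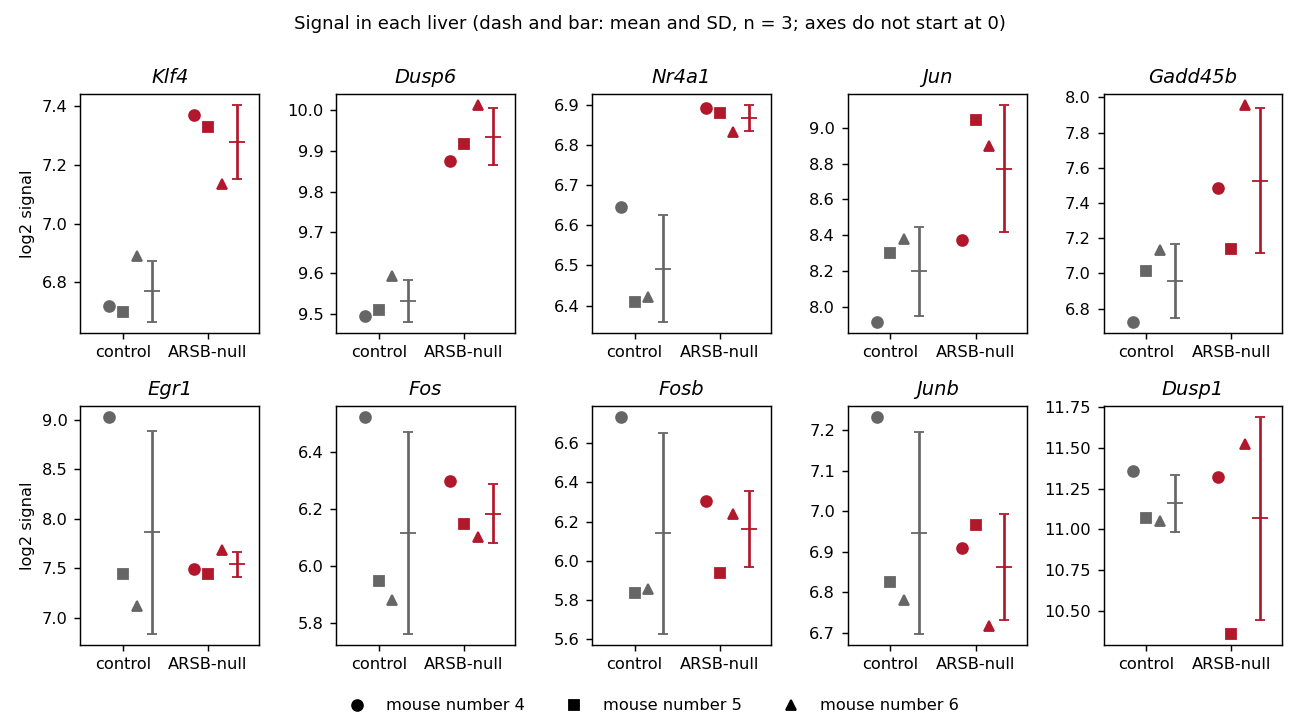
Log2 signal in each liver for 10 of the genes, with grey for control and red for ARSB-null, the symbol for the mouse number, and a dash and bar beside each group for its mean and SD (3 livers). In the upper row Klf4, Dusp6, Nr4a1 and Gadd45b do not overlap and Jun does, and in the lower row the control numbered 4 is the highest liver for Egr1, Fos, Fosb and Junb and the ARSB-null liver numbered 5 the lowest for Dusp1.

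Dusp1, Dusp5 and Dusp6 encode dual specificity phosphatases that take the activating phosphates off MAP kinases. DUSP6 acts on ERK in the cytoplasm and DUSP5 on ERK in the nucleus, whereas DUSP1 prefers p38 and JNK and is also induced by glucocorticoids. Dusp6 was 9.87, 9.92 and 10.01 in ARSB-null livers, against 9.50, 9.51 and 9.59 in control livers. Both groups were narrow, with an SD of 0.07 and 0.05, and 0.28 separated the nearest livers of the groups. The difference of 0.40 (SE 0.10, 95% interval 0.18 to 0.63, 1.32-fold) had an unadjusted limma p of 0.00399 and an adjusted p of 0.501, and ranged from 0.36 to 0.43 when livers were left out in turn.

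Dusp1 was 11.32, 10.36 and 11.52 against 11.36, 11.07 and 11.05. The ARSB-null liver numbered 5 was far below the other livers and the ARSB-null liver numbered 6 the highest. The difference was -0.09 (SE 0.30, 95% interval -0.80 to 0.61, adjusted p = 0.994), and it was 0.26 without the ARSB-null liver numbered 5. Dusp5 spanned 0.19 over the 6 livers and differed by 0.06 (SE 0.10, adjusted p = 0.993). Dusp6 thus separated with a narrow spread within each group, whereas the differences of Dusp1, with its single low liver, and of Dusp5 were under their standard errors.

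Ier2, Ier3 and Ier5 are immediate early response genes, of which Ier3 (IEX-1) is a target of NF-kappaB and ERK that bears on cell survival. Ier3 was 6.84, 6.01 and 6.79 in ARSB-null livers, against 6.32, 6.07 and 5.80 in control livers. Its ARSB-null livers numbered 4 and 6 were above every control and its ARSB-null liver numbered 5 below all but 1 of them. The difference was 0.48 (SE 0.25, 95% interval -0.11 to 1.08, adjusted p = 0.905), with the signal below the array median. Ier2 and Ier5 differed by 0.15 (SE 0.14) and 0.14 (SE 0.11), with overlap and adjusted p-values of 0.985 and 0.976.

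Gadd45a, Gadd45b and Gadd45g encode small stress proteins that bind the upstream kinase MEKK4, and Btg1 and Btg2 antiproliferative adaptors of the CCR4-NOT deadenylase. Gadd45b was 7.49, 7.14 and 7.96 in ARSB-null livers, against 6.73, 7.01 and 7.13 in control livers. The groups did not overlap, yet the ARSB-null liver numbered 5 was level with the control numbered 6, at 7.14 and 7.13. The difference of 0.57 (SE 0.22, 95% interval 0.05 to 1.09, 1.48-fold) had an unadjusted limma p of 0.0365 and an adjusted p of 0.802. It was 0.35 without the ARSB-null liver numbered 6, and 4 of the 6 fits that left out 1 liver gave an unadjusted p above 0.05.

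Gadd45g, its close relative, was 8.45, 7.90 and 8.22 against 7.53, 8.41 and 8.47. The control numbered 4 was the lowest liver, and the ARSB-null liver numbered 4 lay between the other controls. Its difference was 0.05 (SE 0.28, adjusted p = 0.997) with all livers and -0.25 without that control. Gadd45a was 7.52, 7.13 and 7.23 against 7.46, 7.41 and 7.36, a difference of -0.11 (SE 0.13, adjusted p = 0.989). The 3 family members therefore ordered the livers differently. Btg1 and Btg2 differed by -0.06 (SE 0.11) and 0.01 (SE 0.13), and in both the control numbered 4 was the highest liver.

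Zfp36 (tristetraprolin, which destabilizes AU-rich transcripts), Rhob (a short-lived small GTPase), Csrnp1 (a nuclear protein), Sik1 (a cAMP-induced kinase) and Trib1 (a pseudokinase that leads C/EBPalpha to degradation) completed the list. Rhob was 6.54, 6.86 and 6.74 against 6.34, 6.43 and 6.61, with only the ARSB-null liver numbered 4 below a control, and a difference of 0.26 (SE 0.13, adjusted p = 0.889). Sik1 was 9.25, 8.80 and 9.57 against 9.21, 9.49 and 9.61. The ARSB-null liver numbered 5 was again the lowest, as it was for Dusp1, and the difference was -0.23 (SE 0.21, adjusted p = 0.985). Zfp36, Csrnp1 and Trib1 differed by 0.14, 0.03 and -0.04, each within 1 SE of 0 (0.14, 0.09 and 0.14), and the 3 controls of Trib1 were alike to within 0.0019.

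Each liver was the highest or the lowest of the 6 for some of the genes. The control numbered 4 was the highest of the 6 for 9 genes (Fos, Fosb, Fosl1, Junb, Egr1, Nr4a3, Btg1, Btg2 and Csrnp1) and the lowest for 9 others (Jun, Jund, Klf2, Myc, Dusp6, Gadd45b, Gadd45g, Zfp36 and Rhob). Over all probe sets with 1 symbol it was the highest for 32.1%, more often than any other liver, and the lowest for 17.6%. The 9 genes with this control highest were a smaller share of the list than 32.1%. This count tells how often the control numbered 4 was the highest and not by how much. Among those 9 genes it stood above the next liver by 0.01 (Csrnp1) to 1.34 (Egr1). The 9 genes with this control lowest were a larger share than 17.6%. The other controls, numbered 5 and 6, were the highest for 1 and 2 genes, where 14.6% and 10% of all probe sets with 1 symbol had them highest, and they were the lowest for 8 and 9, where 18.6% and 13.6% of all probe sets with 1 symbol had them lowest. The ARSB-null livers numbered 4, 5 and 6 were the highest for 8, 8 and 7 genes, against 15.9%, 14.5% and 12.8%, and the lowest for 4, 4 and 1, against 20%, 13.7% and 16.4%. The ARSB-null liver numbered 5 was the lowest for Nr4a2, Dusp1, Gadd45a and Sik1.

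The livers were also compared within 3 pairs of the same number, although the labels do not say what a number shares. In deviations from the group means, the ARSB-null liver numbered 6 correlated more with the control numbered 5 (0.220) than with the control numbered 6 (0.193). The ARSB-null liver was higher than the control of its number for 23 of the 35 genes in pair 4, for 26 in pair 5 and for 28 in pair 6, with median differences of 0.20, 0.08 and 0.20. Over all probe sets with 1 symbol 40.7%, 52.3% and 48% were higher, with medians of -0.05, 0.01 and -0.01. In all 3 pairs the ARSB-null liver was higher for 15 genes (42.9%), and lower for 0, beside 14.4% and 19.7% of the probe sets with 1 symbol. The 15 were Jun, Jund, Atf3, Maff, Egr3, Nr4a1, Klf2, Klf4, Klf6, Myc, Dusp6, Ier2, Ier5, Gadd45b and Rhob. The 7 genes without overlap between the groups had to be among them. A gene higher in every ARSB-null liver than in any control is higher in every pair. Dusp6 differed by 0.38, 0.41 and 0.42 in pairs 4, 5 and 6, and Egr1 by -1.54, 0.00 and 0.57. Limma with the number as a block gave 7 genes at an unadjusted p of 0.05 or less, with Jund and Maff added to the 6 and Klf6 lost, where 4.42% of all probe sets were higher at that level, and none at an adjusted one.

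**Figure D4:**
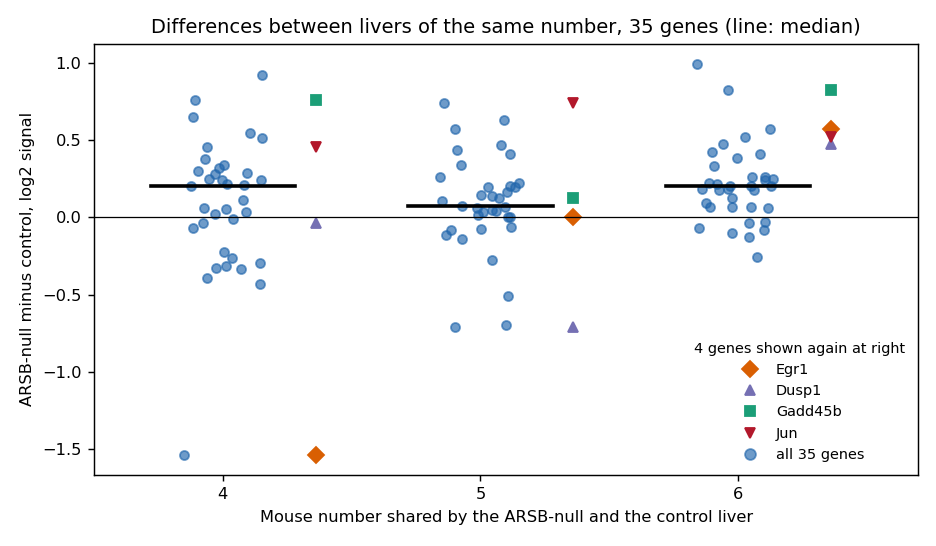
Log2 signal of the ARSB-null liver minus that of the control with the same number, for the 35 genes as blue points in each of the 3 pairs, with a line at the median and Egr1, Dusp1, Gadd45b and Jun shown again at the right of each pair. The medians are 0.20, 0.08 and 0.20, and Egr1 runs from -1.54 in pair 4 to 0.57 in pair 6.

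The kinases and bound factors upstream of these genes were measured by 23 of 27 listed genes. None passed the adjusted threshold or an unadjusted p of 0.05. A lower mean in the ARSB-null livers was seen for 17 and a higher one for 6, with a median difference of -0.05. Over all probe sets with 1 symbol 54.1% had a lower mean. Without overlap between the groups 2 of the 23 were lower and 0 higher, beside 6.78% and 5.14% of all probe sets. The 4 with the smallest p were Mapk9 (JNK2) at -0.16, Rps6ka5 (MSK1, which phosphorylates CREB and histone H3) at -0.20, Mapk14 (p38 alpha) at -0.14 and Elk3, an SRF partner, at 0.14, with adjusted p-values of 0.959 or more. Transcript levels of kinases do not report their phosphorylation.

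A second list held further rapidly induced genes, of which 43 of 45 were measured. Here 30 had a higher mean and 13 a lower one, with a median difference of 0.04. At an unadjusted limma p of 0.05 or less 6 were higher and 3 lower, against 2.75% and 3.19% of all probe sets. None, or 0, passed the adjusted threshold. Ccn2, a matricellular target of YAP and TGF-beta, had the largest difference among the 4 with the smallest p, at 0.69 (SE 0.15, adjusted p = 0.451). It was followed by Trib3, a target of the integrated stress response, at 0.49, by Id1, a target of BMP signalling, at 0.59, and by Cited2, an inhibitor of HIF-1, at -0.40, with adjusted p-values of 0.568, 0.604 and 0.568. For these 4, picked for their small p, the groups did not overlap. Of the 43 genes, 6 were higher and 2 lower without overlap, beside 5.14% and 6.78% of all probe sets.

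Glucocorticoids rise with handling and anaesthesia, and their targets include Dusp1. All 10 listed glucocorticoid-induced genes were measured, and 0 had an unadjusted p of 0.05 or less, with a median difference of 0.10. The ARSB-null liver numbered 6 was the highest of the 6 for 8 of them, where 12.8% of all probe sets with 1 symbol had it highest. The ARSB-null liver numbered 5 was the lowest for 4 (Per1, Sgk1, Ddit4 and Tat), where 13.7% had it lowest. The control numbered 4 was the lowest for 3, the control numbered 6 for 2 and the ARSB-null liver numbered 4 for 1. For Dusp1 the ARSB-null liver numbered 6 was the highest and the ARSB-null liver numbered 5 the lowest. The 4 with the smallest p were Tat at -0.17, Klf9 at 0.13, Ddit4 at -0.27 and Sgk1 at -0.12, all with an adjusted p of 0.970 or more. The part of glucocorticoids in the values of the 35 genes was not tested.

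Markers of other cell types are given beside the values because several of the 35 genes are expressed in them. None of the markers passed the adjusted threshold. The 11 Kupffer cell and macrophage markers, summed on the linear scale, ranged from 8675 to 9231 in the ARSB-null livers and from 8201 to 10657 in the controls. Of these 11, 8 had a lower mean in the ARSB-null livers and 3 a higher one, with a median difference of -0.13. Cd68 (0.53) and C1qa (0.39) were higher and Adgre1 (-0.35) and Csf1r (-0.33) lower at an unadjusted limma p of 0.05 or less. Of all probe sets 2.75% were higher and 3.19% lower at that p. Unlike C1qa, its relatives C1qb (-0.13) and C1qc (-0.14) had lower means, with an unadjusted p above 0.05. The 9 sinusoidal endothelial markers summed to 7961 to 8807 against 7944 to 8383, with Stab1 higher (0.49) and Lyve1 lower (-0.31) at that p. The 8 stellate cell and fibroblast markers summed to 6806 to 7862 against 6733 to 7129, with 0 at that p. The 8 neutrophil markers summed to 358 to 377 against 387 to 430, with 7 below the array median and Ngp (-0.50), Mmp8 (-0.54) and Ltf (-0.31) lower at an unadjusted p of 0.05 or less. The 7 lymphocyte markers summed to 482 to 562 against 494 to 623, with Cd79a (-0.40) and Ms4a1 (-0.49) lower at that p. Of 6 erythroid markers 2 were measured, Slc4a1 (-1.56, adjusted p = 0.224) and Alas2 (-0.81, adjusted p = 0.237), and they summed to 1134 to 1453 against 2295 to 2687. When only probe sets with 1 symbol were tested, both erythroid genes passed, at adjusted p-values of 0.0208 and 0.0407, and the 35 genes did not. The 7 hepatocyte markers summed to 98705 to 104315 against 95465 to 100303. The part of these cell types in the differences of the 35 genes was not tested.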

How the data were processed

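Expression was profiled in 6 livers, 3 of ARSB-null and 3 of control mice, with 1 array each. Per the labels, total RNA was labeled with a whole-transcript kit for a mouse gene array. The authors then applied quantile normalization and summarized the probes; RMA and Partek are the tools given in the submitters' processing notes. What they deposited are log2 signals with 1 value for each probe set in each liver. Quantile normalization removes a shift that most genes share. No scanner files or detection calls were used here, and the number of arrays limits the precision. The study's methods give a second-generation Mouse Gene ST array, but the identifiers of the rows match GEO's annotation for the first generation. No genome build is stated for it in the sources used here, so no probe coordinates are printed.

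GEO's platform annotation gave the gene names, with 1 symbol for 21789 of the 35556 probe sets, several for 1621 and no entry for 12146. The groups were compared with limma 3.58.1 (lmFit, eBayes) in R 4.3.3 over all probe sets, two-sided, adjusted after Benjamini-Hochberg with 0.05 as the threshold, and intervals are 95% intervals. The steps were tested on simulated data. The 35 genes, 3 lists of related genes and 7 marker lists were chosen with earlier results of these data known, so the lists have no test of their own and no p adjusted over a list. Named are all 35 genes, Arsb, and up to 4 genes with the smallest p of each other list; 82 related and 58 marker genes were listed, 76 and 52 measured, after 5 symbols were brought up to date through RefSeq. Promoters were read from RefSeq (GRCm38.p6) and searched on both strands.

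Nothing says more of the mice than that they are separate samples, so p-values measure the spread between these samples. The main fit did not use the shared numbers, so its p-values ignore any pairing, and the number entered only as a block in alternative fits. The deviations from the group means correlated across probe sets at 0.396, 0.159 and 0.193 for numbers 4, 5 and 6. All were above 0.1, the value set for treating the numbers as pairs. The ARSB-null liver numbered 6 correlated with the control numbered 5 at 0.220, and likeness of the livers numbered 4 alone would raise the other correlations, since deviations cancel within a group. These correlations therefore cannot settle whether the numbers pair the mice.

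Alternatives were a one-way analysis of variance per probe set (the test the methods name), the mouse number as a block, probe sets with 1 symbol, centred arrays, probe sets above the median signal, a trended robust prior, array weights and each liver left out. The block on probe sets with 1 symbol and the omission of both livers numbered 4 were added after seeing the data.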

Additional observations from a re-analysis of the deposited data

How the results depend on the processing

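The direction and the side of the adjusted threshold were kept in 484 of 518 values of single genes over 15 alternatives, and 34 changed sign. The kept values include many that could not change sign. The analysis of variance, the block, the choice of probe sets and the trended prior leave the mean difference itself unchanged. No alternative brought any of the 35 genes past an adjusted p of 0.05 (range of the smallest adjusted p 0.0601 to 0.994). Taken at an unadjusted p of 0.05 or less, 6 genes would be past the threshold. That number was 3 by the analysis of variance, 10 on probe sets with 1 symbol with the replicate block (4.42% of these were higher and 7% lower) and 4 to 6 with 1 liver left out, and without both livers numbered 4 there was 1 lower gene, Gadd45g. The replicate block over all probe sets gave 7, adding Jund and Maff and losing Klf6, and changed no call at the adjusted threshold. Without overlap, 4 genes were higher with centred arrays, and 9 to 13 were higher and 0 to 2 lower with 1 liver left out, where 7.93% to 14.3% of all probe sets were higher and 10.5% to 13.8% lower. The median difference was 0.069 to 0.16 with 1 liver left out. For Arsb the difference was -2.67 without both livers numbered 4, with an adjusted p of 0.0534 from fewer samples.

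Centring gave Fosb -0.011, Btg2 -0.018 and Csrnp1 -0.00021. Array weights gave Junb 0.028, Egr1 0.23, Btg1 0.0053 and Gadd45g -0.25. Without both livers numbered 4, the differences were Junb 0.037, Egr1 0.29, Egr2 -0.0034, Nr4a3 0.068, Btg1 0.070, Gadd45g -0.38 and Trib1 0.069. With 1 liver left out the differences ranged for Fos from -0.052 to 0.27, Fosb -0.13 to 0.32, Fosl1 -0.028 to 0.14, Junb -0.17 to 0.059, Egr1 -0.70 to 0.26, Nr4a3 -0.15 to 0.012, Myc -0.0054 to 0.36, Dusp1 -0.32 to 0.26, Btg1 -0.11 to 0.015, Btg2 -0.055 to 0.12, Gadd45g -0.25 to 0.22 and Trib1 -0.17 to 0.069. Apart from the smaller samples, the cause was not tested. A mean over all probe sets of a gene was not run, since each gene had 1. With 3 livers per group and a median standard error of 0.14, differences of the size seen here were mostly not detectable after adjustment. By their mean signal, 7 of the genes were below the array median, where signals may be mostly background.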
